A study of Mus musculus with 12 samples.

Results

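The tendon cell markers described here are 10 genes that are used to recognise tendon fibroblasts: Scx, Tnmd, Mkx, Fmod, Thbs4, Comp, Chad, Kera, Col11a1 and Col11a2. Every gene probe that carries one of these names was taken, which gave 14 probes of 41174 on the array. All 10 genes had at least 1 probe well above background on 12 of 12 arrays, so all 10 passed the filter on dim probes and stand among the 16464 genes and unnamed probes tested. RNA from the quadriceps, the large thigh muscle, of 12 mice was labelled with 1 dye and each sample was hybridised to its own Agilent mouse array. The exercised group held 6 mice that had trained on a motorised treadmill for 4 weeks, with muscle taken 3 hours after the last bout, and the sedentary group held 6 mice without training. All 12 were C57BL/6J males aged 13 weeks, with no transgene or other agent in the labels. The comparison asks which transcripts differ between exercised and sedentary muscle, and it does not separate the last bout from the weeks of training.

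Tendons join muscle to bone and are built by fibroblasts, called tenocytes, that lay down parallel fibrils of type I collagen. Scleraxis and Mohawk are transcription factors of the tendon lineage, tenomodulin is a surface protein of mature tenocytes, and the other markers encode proteins that bind collagen fibrils or form part of them. A sample of whole muscle also takes in tendon, aponeurosis and the myotendinous junction to an extent that the dissection sets. In such bulk samples fewer cells of a type and less RNA per cell cannot be told apart.

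Levels are given as relative signal, the processed signal of a probe divided by the 75th percentile of the gene probes on the same array, and differences are on the log2 scale, exercised minus sedentary. The 75th percentile ran from 179 to 230 units of intensity in exercised and from 167 to 237 in sedentary arrays. Probes well above background numbered 22420 to 24863 in exercised and 21728 to 25246 in sedentary arrays. The labels number the mice within title sets 1 and 2 of unstated meaning, so that s2m3 is mouse 3 of set 2. The 12 arrays lay on 3 slides: slide 1 held exercised s2m5 beside sedentary s1m6, s2m2 and s2m5, slide 2 held exercised s2m1, s2m3 and s2m4 beside sedentary s1m5, and slide 3 held 2 arrays of each group. Of the 12 arrays, sedentary s2m2 stood apart from its group in several tendon markers, and exercised s2m3 had the highest level of most of them. The differences of the markers are therefore also given without both.

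The sequences of 5 probes are shown first, 5′ to 3′. Those of Tnmd and Comp gave the values below, and those of Thbs4, Col11a1 and Col11a2 are second probes of these genes, whose levels below rest on another probe. Positions come from the array's own annotation (build mm9).
Tnmd: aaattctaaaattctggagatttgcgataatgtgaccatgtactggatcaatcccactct
Comp: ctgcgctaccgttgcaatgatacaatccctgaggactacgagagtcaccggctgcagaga
Thbs4: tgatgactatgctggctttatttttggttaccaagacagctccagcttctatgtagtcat
Col11a1: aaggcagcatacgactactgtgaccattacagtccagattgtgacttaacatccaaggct
Col11a2: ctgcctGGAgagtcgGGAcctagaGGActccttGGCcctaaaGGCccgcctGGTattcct
The Tnmd probe lay at chrX:130397487-130397546 on the plus strand and the Comp probe at chr8:72905692-72905825 on the plus strand, a span of 134 bases for a probe of 60. The Thbs4 probe lay at chr13:93525120-93525179 on the minus strand and is the weaker of 2. The Col11a1 probe, at chr3:113793086-113793145 on the plus strand, was above background on 1 of 12 arrays and is shown because it gives no level. The Col11a2 probe, at chr17:34189287-34189453 on the plus strand, spans 167 bases of genome for 60 of probe. Its capitals mark 6 glycine codons (GGN, where N is any base) in 1 reading frame, the repeat of a collagen triple helix.

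No tendon marker passed the test across all genes, although 10 of 10 were higher on average in exercised muscle. At an adjusted p below 0.05 by limma with Benjamini-Hochberg adjustment, 0 of 10 markers were called, against 3.66% of all genes tested in either direction and 1.82% in the higher direction. Adjusted p ran from 0.122 for Fmod to 0.940 for Scx. The difference was above 0 for 10 of 10 markers and for 42.1% of all genes, and 9 of 10 had an unadjusted p below 0.05 with exercised higher, against 6.41% of all genes. These counts are a description, since the markers were chosen with earlier results of these data known. Most of the markers also vary together from mouse to mouse, so they are not independent. The count of 9 was 2 of 10 with slide as a block, and ran from 0 to 9 over all alternatives. The median difference of the markers was 0.82, against -0.03 for all genes. The groups did not separate fully for any marker: 0 of 10 were free of overlap, against 3.02% of all genes in either direction and 1.40% with exercised higher.

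Scx encodes scleraxis, a basic helix-loop-helix transcription factor that marks tendon progenitors and tenocytes. Its probe, at chr15:76289708-76289767 on the plus strand, gave a relative signal of 4.07 at the lowest, 5.0 at the median and 7.68 at the highest in exercised arrays, against 4.19, 4.99 and 6.36 in sedentary arrays. The groups overlapped almost completely, and only exercised s2m5 lay above every sedentary array. The difference was 0.04 ± 0.149 (SE, n = 6 each), a 1.03-fold level with a 95% interval of 0.820 to 1.28 (limma adjusted p = 0.940). The interval leaves room for a rise of 1.28-fold but not for the median difference of the markers. Scx overlaps Bop1 in the RefSeq gene table.

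Mkx encodes Mohawk, a homeobox factor that promotes collagen production in tendon, and lies on chromosome 18. Its relative signal was 0.179 at the lowest, 0.249 at the median and 0.330 at the highest in exercised arrays, against 0.113, 0.168 and 0.250 in sedentary arrays. Above the highest sedentary array lay 3 of 6 exercised arrays, and the others lay among the sedentary ones. The level was 1.45-fold (95% interval 1.07 to 1.96), with an adjusted p of 0.187 by limma.

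Tnmd encodes tenomodulin, a type II membrane glycoprotein of mature tenocytes that supports tenocyte proliferation and fibril maturation. Its relative signal in exercised arrays was 2.61 in s1m1, 2.77 in s1m5, 1.52 in s2m1, 3.93 in s2m3, 3.08 in s2m4 and 2.76 in s2m5. In sedentary arrays it was 2.22 in s1m1, 1.62 in s1m5, 1.15 in s1m6, 0.352 in s2m2, 1.46 in s2m4 and 1.72 in s2m5. Thus 5 of 6 exercised arrays lay above every sedentary array, exercised s2m1 lay inside the sedentary range, and sedentary s2m2 lay far below all others. The difference was 1.11 ± 0.385 (SE), a 2.16-fold level with a 95% interval of 1.21 to 3.85 (limma adjusted p = 0.153).

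**Figure D1:**
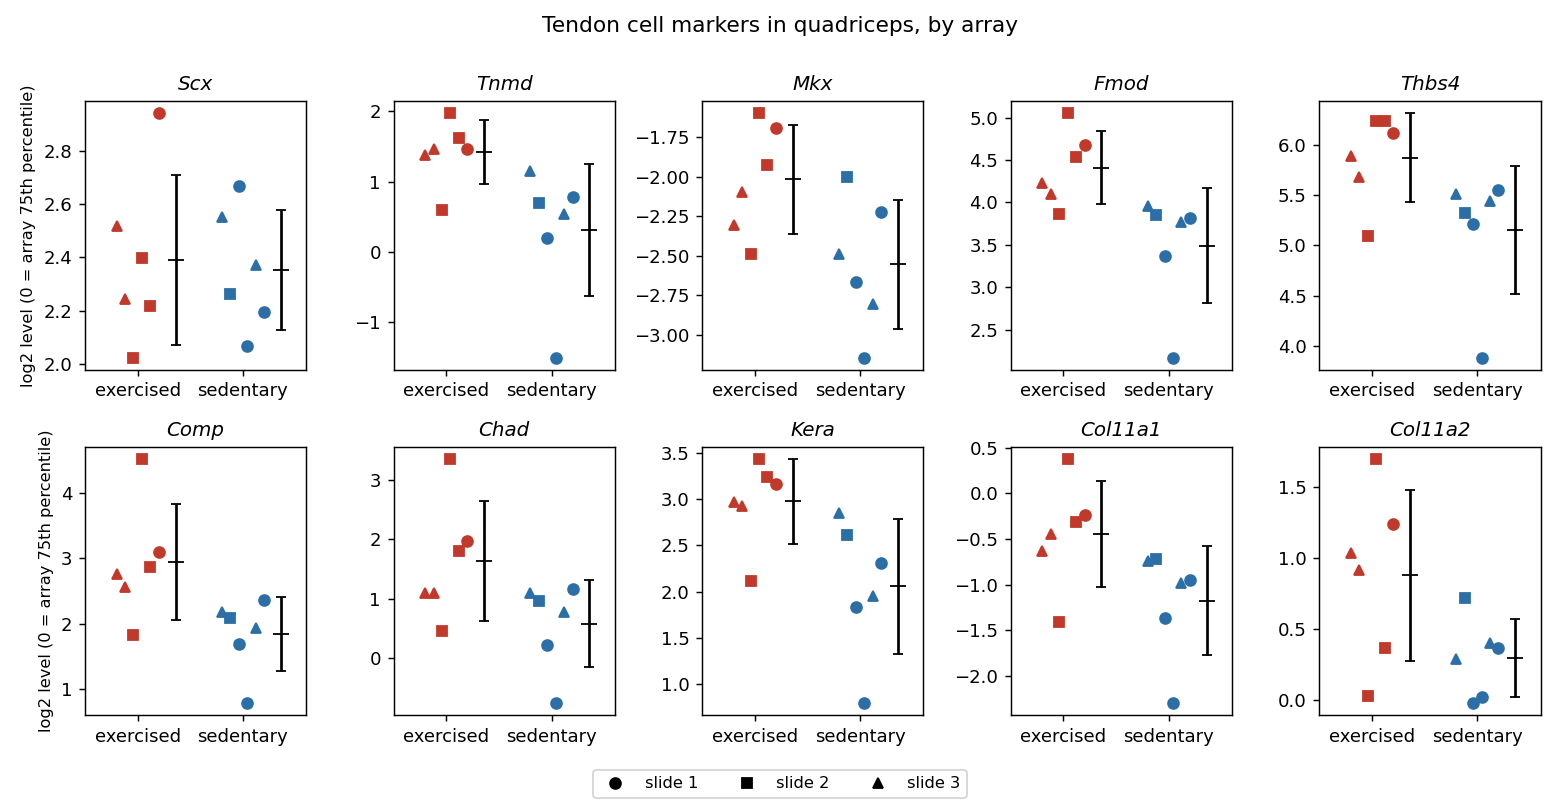
Level of each tendon marker on each of the 12 arrays, as log2 of the relative signal (0 is the 75th percentile of the array), with exercised left and sedentary right in every panel; each point is 1 array, black bars are the group mean ± SD (n = 6) and marker shapes give the slide. In 6 of 10 panels a single exercised array, s2m1, lies below the highest sedentary array, and in the Scx panel the groups overlap almost completely.

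Fmod, Kera and Chad encode small leucine-rich repeat proteins of the matrix. Fibromodulin binds type I collagen and regulates how its fibrils grow. For Fmod, with its probe at chr1:135943998-135944057 on the plus strand, the relative signal was 14.5 at the lowest, 20.9 at the median and 33.1 at the highest in exercised arrays, against 4.50, 13.8 and 15.5 in sedentary arrays. Only exercised s2m1 lay below the highest sedentary array, and sedentary s2m2 lay well below all others. The Fmod level was 1.89-fold (95% interval 1.21 to 2.95), with a difference of 0.92 ± 0.296 (SE) and the lowest adjusted p of the 10 markers, 0.122 by limma.

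Keratocan, a keratan sulfate proteoglycan best known from the cornea, is also made in tendon. The Kera probe, at chr10:97076230-97076289 on the plus strand, gave 4.33 at the lowest, 8.39 at the median and 10.8 at the highest in exercised arrays, against 1.74, 4.41 and 7.19 in sedentary arrays. Again 5 of 6 exercised arrays lay above every sedentary array. The level was 1.88-fold (95% interval 1.17 to 3.03, limma adjusted p = 0.153).

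Chondroadherin links collagen to cell-surface integrins and is abundant in cartilage as well as tendon. The Chad probe, at chr11:94430136-94430195 on the plus strand, gave 1.37 at the lowest, 2.82 at the median and 10.2 at the highest in exercised arrays, against 0.593, 1.84 and 2.23 in sedentary arrays. Exercised s2m3 at 10.2 stood far above the next array, exercised s2m5 at 3.90, and 3 of 6 exercised arrays lay within the sedentary range. The level was 2.07-fold with a wide interval of 1.04 to 4.12 (limma adjusted p = 0.274). Chad overlaps Acsf2 in the RefSeq gene table.

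Thbs4 and Comp encode thrombospondin-4 and cartilage oligomeric matrix protein (thrombospondin-5), pentameric proteins that bind collagens, and Thbs4 is also made by muscle. The stronger Thbs4 probe, at chr13:93521565-93521624 on the minus strand, gave 34.1 at the lowest, 64.5 at the median and 75.6 at the highest in exercised arrays, against 14.7, 41.8 and 47.0 in sedentary arrays. All exercised arrays but s2m1 lay above every sedentary array. The level was 1.65-fold (95% interval 1.07 to 2.54, limma adjusted p = 0.215). The other Thbs4 probe, whose sequence is printed above and which starts 3.6 kb away, differed by 0.98 ± 0.372 (SE, limma adjusted p = 0.204), and the 2 probes correlated at 0.992 over 12 arrays.

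Comp gave 6.79 in s1m1, 5.92 in s1m5, 3.54 in s2m1, 23 in s2m3, 7.32 in s2m4 and 8.58 in s2m5 of the exercised group. Sedentary arrays gave 4.54 in s1m1, 4.23 in s1m5, 3.22 in s1m6, 1.72 in s2m2, 3.81 in s2m4 and 5.16 in s2m5. Again exercised s2m1 was the one exercised array within the sedentary range, and exercised s2m3 stood far above the rest. The difference of Comp was 1.1 ± 0.387 (SE), a 2.15-fold level with a 95% interval of 1.20 to 3.84 (limma adjusted p = 0.160).

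Col11a1 and Col11a2 encode chains of type XI collagen, a minor fibrillar collagen that sets the diameter of new fibrils in cartilage and tendon. The Col11a1 probe that was measured, at chr3:113922153-113922211 on the plus strand, gave 0.376 at the lowest, 0.768 at the median and 1.30 at the highest in exercised arrays, against 0.204, 0.514 and 0.608 in sedentary arrays. For Col11a1, 5 of 6 exercised arrays lay above every sedentary array and the level was 1.66-fold (95% interval 1.04 to 2.64, limma adjusted p = 0.253). Of the other 2 Col11a1 probes, 1 was above background on 1 array, in the exercised group, and the other on 0 of 12, so neither gives a fold.

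For Col11a2, the stronger probe, at chr17:34202998-34203057 on the plus strand, gave 1.02 at the lowest, 1.97 at the median and 3.25 at the highest in exercised arrays, against 0.983, 1.25 and 1.65 in sedentary arrays. Here 4 of 6 exercised arrays lay above the sedentary range and the level was 1.5-fold (95% interval 1.04 to 2.17, limma adjusted p = 0.252). The other Col11a2 probe, printed above with its glycine codons, was above background on 3 of 6 exercised and 5 of 6 sedentary arrays. It was dim, with a median of 0.0502 in exercised and 0.0620 in sedentary arrays. Its difference had the opposite sign, -0.41 ± 0.240 (SE, limma adjusted p = 0.467), and it did not follow the stronger probe across arrays (r = 0.08, 13.7 kb apart). The sign for Col11a2 therefore differs between the 2 probes, of which the dim one lay near background and neither passed the test. With the mean of a gene's probes in place of the strongest, the Col11a2 difference was 0.09 (limma adjusted p = 0.889). Under that rule 8 of 10 markers had an unadjusted p below 0.05 with exercised higher.

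**Figure D2:**
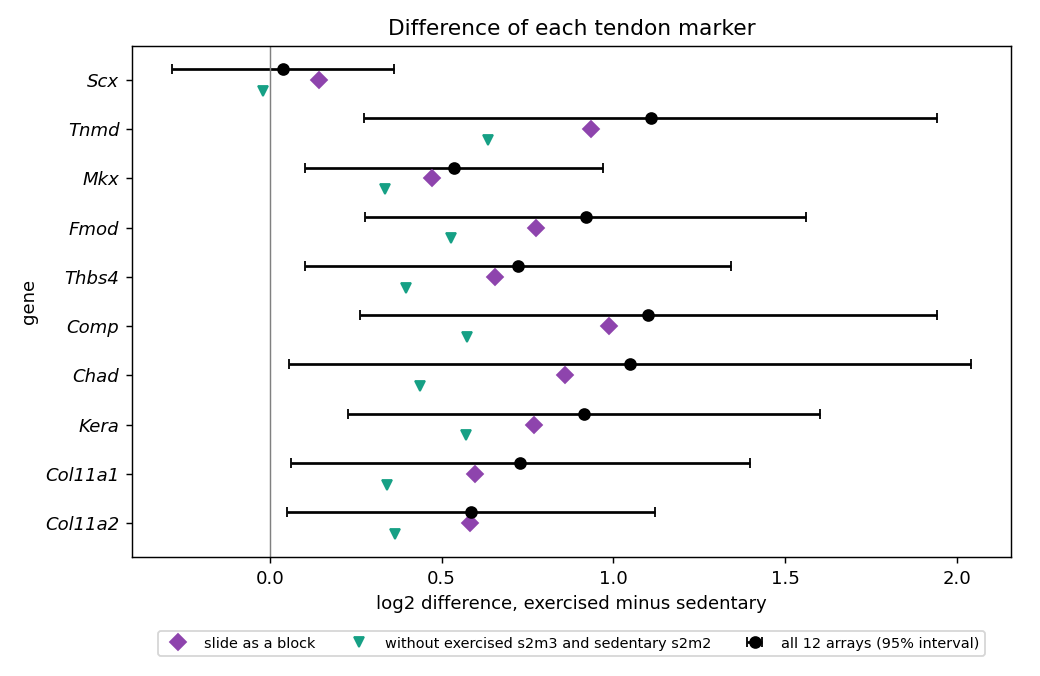
Log2 difference of each tendon marker, exercised minus sedentary, over all 12 arrays (black, with 95% intervals), with slide as a block (diamonds), and without exercised s2m3 and sedentary s2m2. All 10 differences over 12 arrays lie above 0, with a median of 0.82, and the median is 0.42 without both arrays, while Scx stays near 0.

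The differences were also taken without 2 arrays, exercised s2m3 and sedentary s2m2, picked because their marker levels were the highest and the lowest. Taking the top array from the higher group and the bottom array from the lower one shrinks the difference in the markers' mean level by construction, so a smaller median without both is no sign of stability or of its lack. Exercised s2m3 was the highest of the 12 arrays for 8 of 10 markers, and sedentary s2m2 was the lowest of 12 for 8 of 10. Exercised s2m1 was the lowest exercised array for 10 of 10 markers, and the median difference was 0.976 without it. Without exercised s2m3 and sedentary s2m2 the median difference was 0.42, 9 of 10 markers remained above 0 on average, and 4 of 10 (Tnmd, Fmod, Comp and Kera) had an unadjusted p below 0.05, against 6.02% of all genes in that direction. The smallest adjusted p of a marker was then 0.146 by limma, so that 0 of 10 were called, against 2.29% of all genes. Single differences without both arrays were 0.64 for Tnmd, 0.57 for Comp and Kera, 0.53 for Fmod, 0.44 for Chad, 0.40 for Thbs4, 0.37 for Col11a2, 0.34 for Mkx and Col11a1 and -0.02 for Scx. The number at an unadjusted p below 0.05 was 5 without exercised s2m3 alone and 5 without exercised s2m5 alone, against 9 over all 12 arrays.

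Slides held the groups unequally, so the differences were also taken within them. On slide 1, with exercised s2m5 alone against 3 sedentary arrays, s2m2 among them, the median difference of the markers was 1.39 and 10 of 10 were above 0. Slide 2, with 3 exercised arrays against sedentary s1m5, gave 0.42 and 7 of 10. Slide 3, with 2 arrays of each group, gave 0.38 and 9 of 10. With slide as a block the median was 0.71 and 2 of 10 markers, Tnmd and Fmod, had an unadjusted p below 0.05 with exercised higher, against 6.22% of all genes. Tnmd then differed by 0.94 (limma adjusted p = 0.344) and Fmod by 0.78 (limma adjusted p = 0.320). With the block 0 of 10 were called, against 2.13% of all genes. The part of slide in these differences was not tested further.

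The difference was also set between the title sets. Set 2 minus set 1 ran from -0.07 for Col11a2 to 1.17 for Chad, and no marker passed an interaction test in limma (adjusted p from 0.649 to 0.974). Exercised s2m3 and sedentary s2m2, the arrays of highest and lowest tendon marker levels, are both mice of set 2.

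**Figure D3:**
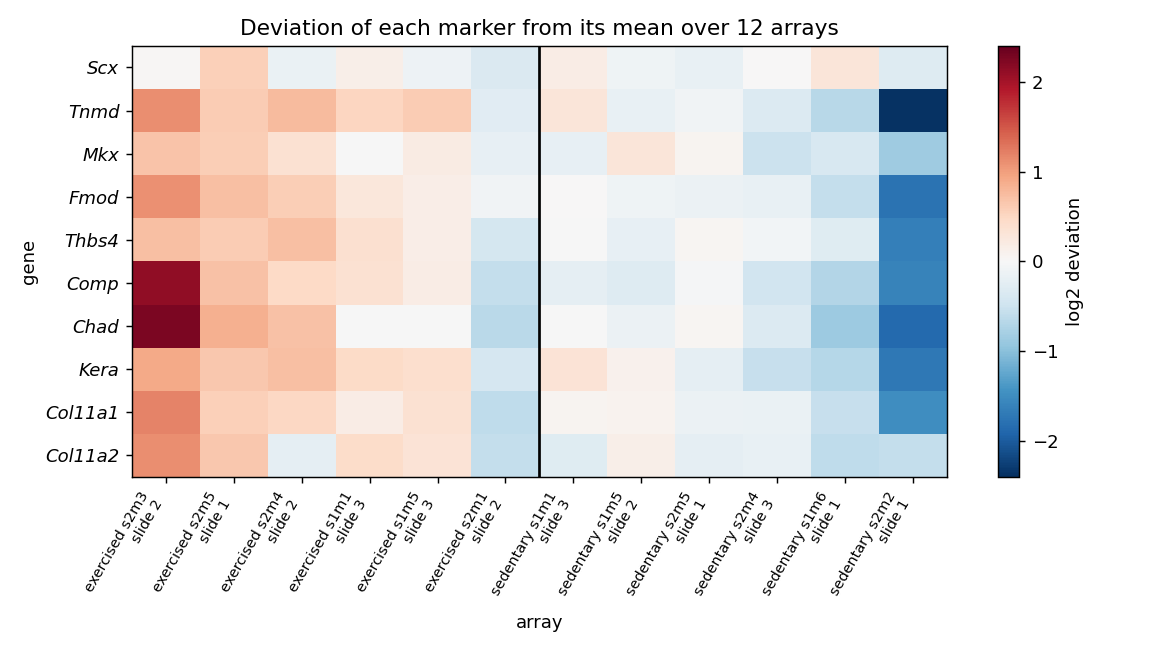
Deviation of each tendon marker from its mean over 12 arrays, on the log2 scale, with genes in rows and arrays in columns, exercised left of the line and sedentary right of it. The columns of exercised s2m3 and sedentary s2m2 are high and low in most rows, and the Scx row is the palest.

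Apart from Scx, the markers went up and down together from mouse to mouse. With each group's mean removed, the median correlation of the 45 pairs was 0.80, and for the 28 pairs of the 8 genes other than Scx and Col11a2 it was 0.89, with 24 pairs over 0.8. Comp and Chad were the closest pair at 0.98. The 9 pairs with Scx ran from 0.34 to 0.51 and the 8 other pairs with Col11a2 from 0.52 to 0.80. Without exercised s2m3 and sedentary s2m2 the medians were 0.74 over all pairs, 0.85 for the 28 pairs and 0.35 for the pairs with Scx. These correlations are descriptions over arrays that share normalisation and slides. The spread of the markers within a group was also large: 7 of 10 lay above the 90th percentile of all genes in residual SD, from the 71.4 percentile for Scx to the 98.3 percentile for Chad. Chad spanned 7.48-fold among exercised arrays and Tnmd 6.32-fold among sedentary arrays.

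A tendon score was computed for each array by averaging, over the 10 markers, how far each stood from its 12-array mean. The score was 0.27 in s1m1, 0.22 in s1m5, -0.41 in s2m1, 1.12 in s2m3, 0.45 in s2m4 and 0.65 in s2m5 of the exercised group. In sedentary arrays it was 0.02 in s1m1, -0.04 in s1m5, -0.51 in s1m6, -1.42 in s2m2, -0.28 in s2m4 and -0.08 in s2m5. All exercised arrays but s2m1 lay above every sedentary array.

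Among 13096 genes with a symbol outside the markers, the 10 whose levels followed the tendon score most closely over 12 arrays, group means removed, were Col16a1 (r = 0.977), Sec24d (0.974), Olfml3 (0.972), Cilp2 (0.966), Ccn4 (0.964), Cybrd1 (0.961), Rftn2 (0.953), Macroh2a3 (0.948), Prrx2 (0.945) and Wif1 (0.941). Col16a1 encodes a fibril-associated collagen, Sec24d a coat protein of vesicles that carry procollagen out of the endoplasmic reticulum, Cilp2 a cartilage and tendon matrix protein, and Ccn4 and Wif1 a target and an inhibitor of Wnt signalling. Without exercised s2m3 and sedentary s2m2 these correlations were 0.837 to 0.959. None of the 10 was called between the groups, with the smallest adjusted p for Wif1 at 0.122 and a difference of 1.16. At the opposite end stood Rps7 (r = -0.944), Rps25 (-0.928), Zfp212 (-0.908), Yae1d1 (-0.907) and Mrln (-0.895). Rps7 and Rps25 encode proteins of the small ribosomal subunit, and Mrln encodes myoregulin, a muscle micropeptide that inhibits the SERCA calcium pump. Of these 5, Mrln fell by 0.36 on the log2 scale in exercised muscle (limma adjusted p = 0.0392), but was not called with slide as a block (adjusted p = 0.130) or without exercised s2m3 and sedentary s2m2 (adjusted p = 0.113).

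Of 30 further genes of the tendon matrix, 29 were measured, and 3 rose, 0 fell and 26 did not pass the test. Over all genes tested 1.82% were called higher and 3.66% in either direction. The median difference was 0.40, with 24 of 29 above 0, against a median of -0.03 and 42.1% above 0 for all genes. Angptl7, a secreted angiopoietin-like protein, had a relative signal of 2.41 to 7.57 in exercised arrays and 0.689 to 2.02 in sedentary arrays, a 3.58-fold rise (limma adjusted p = 0.00880). Thbs1, the matricellular thrombospondin-1, rose 2.94-fold (limma adjusted p = 0.0287) but not with slide as a block (adjusted p = 0.115). Fibin, a secreted protein, had 13.2 to 18 in exercised and 7.0 to 8.57 in sedentary arrays, with no overlap, and rose 1.99-fold (limma adjusted p = 0.000137). The scores of this list were 0.54 in exercised s2m3 and -0.82 in sedentary s2m2, and its median was 0.21 without both.

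Among 31 regulators that act upstream of tendon genes (TGF-beta, Smad, FGF, Egr and mechanosensing genes among them), 27 were measured and 1 rose. The share of all genes called was 1.82% in the higher direction and 3.66% in either direction. Ccn2, connective tissue growth factor, ran from 11.1 to 36.7 in exercised and from 5.63 to 9.25 in sedentary arrays, a 3.03-fold rise (limma adjusted p = 0.00582). Tgif1, a repressor of Smad signalling, had the next smallest p and a difference of 0.64 (limma adjusted p = 0.0614). The median of this list was -0.00, with 13 of 27 above 0. The myotendinous junction list had 0 of 13 called by limma, 2 at an unadjusted p below 0.05 and 5 of 13 above 0. Its median was -0.01, or -0.03 without exercised s2m3 and sedentary s2m2. Over all genes 16.2% had an unadjusted p below 0.05 in either direction, as counted for this and the lists below. For the same lists, the share of all genes called in either direction was 3.66%, and 42.1% had a difference above 0. The junction genes with the smallest p were Vcl, which encodes vinculin (0.21, limma adjusted p = 0.165), and Xirp1, which encodes an actin-binding junction protein (0.58, limma adjusted p = 0.203).

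**Figure D4:**
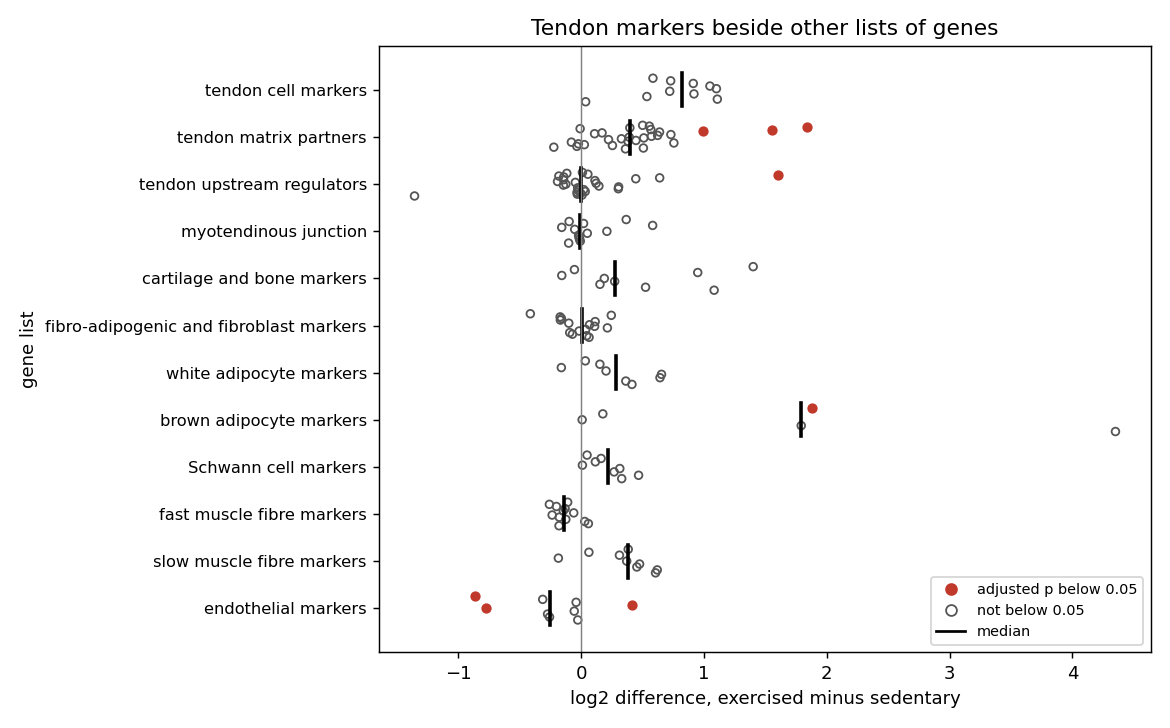
Log2 difference, exercised minus sedentary, of every measured gene of the tendon marker list and the other lists, over all 12 arrays. Filled points passed the test at an adjusted p below 0.05, open points did not, and black lines mark list medians, which are 0.82 for the tendon markers with 0 filled points and 0.40 for the tendon matrix genes with 3.

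Markers of other tissues near muscle were set beside the tendon markers. Cartilage shares Comp, Chad and the type XI collagen chains with tendon, but the cartilage and bone list used here holds none of the tendon markers. That list had 9 of 19 measured, 0 called by limma, 3 at an unadjusted p below 0.05 and 7 of 9 above 0. Its median was 0.27, or 0.02 without exercised s2m3 and sedentary s2m2. Their summed relative signal ran from 16.7 to 39.0 in exercised and from 16.6 to 19.1 in sedentary arrays, and their score was 1.54 in exercised s2m3. Most of the sum in sedentary arrays came from Sox6, whose median was 13.8 there and 12.6 in exercised arrays. Prg4, the joint lubricant lubricin, had 11.1 in exercised s2m3 against a next highest of 5.84 among the other arrays, and a difference of 1.40 between the groups (limma adjusted p = 0.0909). Cytl1, a secreted cytokine-like protein of cartilage, had 3.93 in exercised s2m3 and 1.05 in the next highest array, with a difference of 0.95 (limma adjusted p = 0.229). Col2a1, the type II collagen of cartilage, had 10.3 in exercised s2m3 and 2.17 in the next array, and Acan, the proteoglycan aggrecan, had 0.868 there and 0.0916 in the next highest array. The Acan probe was above background on only 6 of 12 arrays. Col9a1 had 0.123 in exercised s2m3 and 0.113 in the next highest array, and Col9a2 had 0.374 and 0.355. Sox6 had 11.8 in exercised s2m3 and 15.6 in the highest array, with a difference of -0.16 (limma adjusted p = 0.301). Col2a1, Acan, Col9a1, Col9a2 and Sox6 were picked out with their values already known. The cartilage genes that were not above the filter include Col9a3, Col10a1 and Matn1. The part of cartilage or joint tissue in the levels of exercised s2m3 was not tested.

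Markers of slow fibres had 0 of 9 called by limma, 0 at an unadjusted p below 0.05 and 8 of 9 above 0. Their median was 0.38, or -0.02 without both arrays. Their list scores were 1.14 in exercised s2m3 and -1.10 in sedentary s2m2. The other exercised arrays ran from -0.48 in s1m1 to 0.32 in s2m1, and the other sedentary arrays from -1.08 in s1m6 to 0.60 in s2m5. The summed signal of the slow fibre markers ran from 323 to 828 in exercised and from 422 to 676 in sedentary arrays. Of this sum, Myl3 alone gave 207 to 465 and 221 to 532. The smallest p were those of Casq2, cardiac calsequestrin (0.38, limma adjusted p = 0.365), and Tnnt1, slow troponin T (0.62, limma adjusted p = 0.634). The part of slow fibre content in the tendon marker levels was not tested. Fast fibre markers had 0 of 12 called, 3 at an unadjusted p below 0.05 and 2 of 12 above 0. Their median was -0.14, or -0.11 without both arrays. Tnnc2, fast troponin C, differed by -0.23 (limma adjusted p = 0.0678) and Atp2a1, the fast SERCA pump, by -0.26 (limma adjusted p = 0.228).

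General fibroblast markers had 0 of 16 called by limma, 2 at an unadjusted p below 0.05 and 8 of 16 above 0. Their median was 0.01, or -0.02 without both arrays. Their summed signal ran from 397 to 511 in exercised and from 340 to 553 in sedentary arrays, so the groups overlapped. Most of this sum came from Gsn, picked out with its values already known, which gave 301 to 419 and 260 to 459. Fbn1, the microfibril protein fibrillin-1, differed by -0.41 (limma adjusted p = 0.0787) and Vim, the intermediate filament vimentin, by 0.25 (limma adjusted p = 0.185). Schwann cell markers had 0 of 8 called, 4 at an unadjusted p below 0.05, 8 of 8 above 0 and a median of 0.22 with and without both arrays. In that list Mbp, myelin basic protein, differed by 0.47 (limma adjusted p = 0.113).

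White adipocyte markers had 0 of 8 called by limma, 0 at an unadjusted p below 0.05, 7 of 8 above 0 and a median of 0.28. Cidec, a lipid droplet protein, differed by 0.64 (limma adjusted p = 0.516) and Retn, resistin, by 0.66 (limma adjusted p = 0.550). The white adipocyte median was 0.76 without exercised s2m3 and sedentary s2m2. Its list score was -0.70 in exercised s2m3 and 0.81 in sedentary s2m2, opposite in sign to their tendon scores. Of 5 brown adipocyte markers 5 were above 0, 3 had an unadjusted p below 0.05, and the median was 1.79, or 1.92 without both arrays, larger than that of the tendon markers. The 1 that rose, against 1.82% of all genes called higher, was Ppargc1a, a coactivator that muscle itself expresses (3.68-fold, limma adjusted p = 0.00039). Ucp1, the uncoupling protein of brown fat, ran from 0.0114 to 9.50 in exercised and from 0.00704 to 0.683 in sedentary arrays, with 7 of 12 arrays above background and a difference of 4.35 (limma adjusted p = 0.180). Cidea, a lipid droplet protein picked out with its values already known, differed by 1.79 (limma adjusted p = 0.258). Cox7a1 and Dio2, picked out in the same way, differed by only 0.01 and 0.18 (limma adjusted p = 0.976 and 0.775), so the rise was not shared by the whole list. The list median of 1.92 without both arrays is the value of Ppargc1a itself. The part of adipose tissue in the tendon marker levels was not tested. Of 9 endothelial markers 1 rose, the VEGF receptor gene Flt1 (1.33-fold, limma adjusted p = 0.0143), and 2 fell, the VEGF receptor gene Kdr (by 0.77 on the log2 scale, limma adjusted p = 0.00676) and the tight junction gene Cldn5 (by 0.87 on the log2 scale, limma adjusted p = 0.0271). Among all genes 3.66% were called in either direction. The endothelial median was -0.26, or -0.31 without both arrays, with 5 of 9 at an unadjusted p below 0.05 and 1 of 9 above 0. With slide as a block Flt1 and Cldn5 were not called (adjusted p = 0.0550 and 0.0706).

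**Figure D5:**
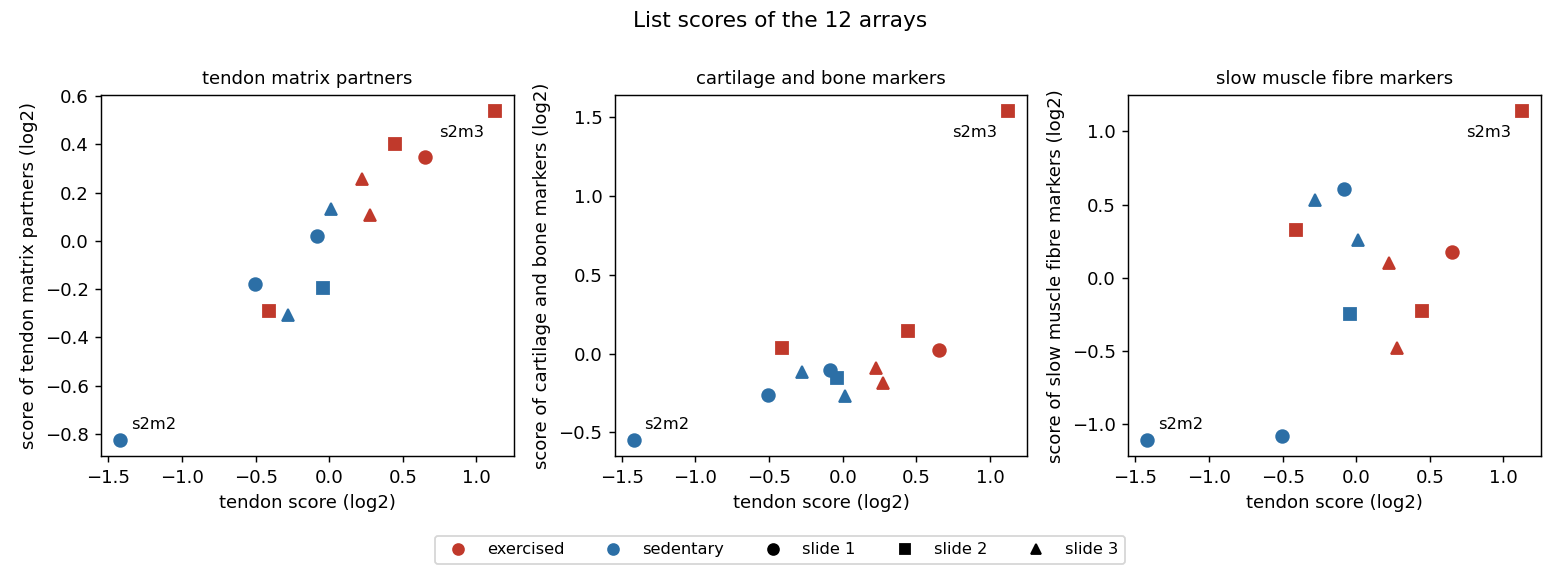
Score of other gene lists against the tendon score, 1 point per array, on log2 scales, with exercised and sedentary arrays in separate colours and marker shapes for the slides; the panels show tendon matrix, cartilage and bone, and slow fibre genes. Exercised s2m3 and sedentary s2m2 lie at the ends of the tendon score at 1.12 and -1.42, and exercised s2m3 also has the highest cartilage and bone score, 1.54.

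Promoter sequences were in the RefSeq table, build GRCm38.p6, for 7 of the 10 markers. The 250 bases before the start of Fmod and Thbs4 are shown, 5′ to 3′ on the gene's strand, because scleraxis belongs to the factors that bind E-boxes. Capitals mark the E-box letters CANNTG, where N is any base, which read the same on both strands.
Fmod: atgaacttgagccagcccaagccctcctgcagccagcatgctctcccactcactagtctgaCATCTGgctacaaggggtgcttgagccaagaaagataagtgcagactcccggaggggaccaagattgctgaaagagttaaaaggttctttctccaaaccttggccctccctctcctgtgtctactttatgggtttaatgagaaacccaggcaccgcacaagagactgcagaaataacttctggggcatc
Thbs4: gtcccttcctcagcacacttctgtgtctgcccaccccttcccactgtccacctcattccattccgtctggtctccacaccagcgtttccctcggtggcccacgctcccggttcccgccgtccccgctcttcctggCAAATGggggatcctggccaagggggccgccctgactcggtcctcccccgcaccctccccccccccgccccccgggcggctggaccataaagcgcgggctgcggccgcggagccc
The Fmod window is chr1:134037004-134037253 on the plus strand and the Thbs4 window is chr13:92794819-92795068 on the minus strand. The E-box letters start 189 bases before the start of Fmod and 115 bases before that of Thbs4. They occur in 4 of the 7 windows (Fmod, Thbs4, Chad and Col11a2) and in 66.2% of 32851 promoter windows of the same length. The letters TATAAA, searched on both strands, occur in 2 of 7 (Chad and Col11a2) and in 12.4% of all windows.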

How the data were processed

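The authors deposited scanner files of 12 one-colour arrays with spot intensity on a linear scale, and marks for background and outlier spots. Agilent Feature Extraction made them, in version 10.5.1.1 per the file headers and 9.1 per the submitters' processing notes. The deposited processed signal intensity was already background-corrected within each array and not scaled between arrays.

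Control spots and outlier spots were left out, spots of a probe were averaged, and the log2 signal was taken relative to each array's 75th percentile. Probes well above background on at least 6 of 12 arrays were kept (22919 of 41174). Where several probes name a gene, the one of highest mean level stands for it. No sequence was available to check the mm9 probe positions. The test was limma 3.58.1, run in R 4.3.3 (the data.table package was version 1.17.8), exercised minus sedentary with no block and with Benjamini-Hochberg adjustment over 16464 genes and unnamed probes. Replicates are separate mice per the labels. The number of arrays limits the precision.

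The members and gene lists were chosen with earlier results of these data known. Named genes were the markers, the 2 with the smallest p and any called gene of each other list, and the 10 most and 5 least correlated with the tendon score; others are said to be chosen afterwards, and 1 gene under this rule is not reported here. The pipeline was tested on simulated data. Alternatives were other background correction, scaling, filters, probe rules, slide and title set as blocks, and leaving out each array.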

Additional observations from a re-analysis of the deposited data

Results flagged for a closer look

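Values of 22 groups of 6 arrays (10 markers and the tendon score, in exercised and in sedentary) were examined for a single array far from the others, with the gap to the nearest array as a share of the group's range compared with Dixon's 95% critical value for 6 values. By chance about 1 in 20 groups is marked, and 4 were, all for sedentary s2m2, the lowest array of its group. The share was 0.640 for Tnmd (a log2 gap of 1.70 in a range of 2.66), 0.673 for Fmod (1.20 of 1.79), 0.799 for Thbs4 (1.34 of 1.67) and 0.637 for the tendon score (0.913 of 1.43). The 4 values are not independent, since the score contains the genes. Exercised s2m3, the highest array for 8 of 10 markers, was below the critical value in each. The values without sedentary s2m2 and exercised s2m3 stand beside the results above.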

How the results depend on the processing

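The number of tendon markers called was 0 by limma in all 35 alternatives run, with 0 to 9 of 10 higher at an unadjusted p below 0.05. The number of genes called over the whole table, 602 over 12 arrays, moved more: 317 with no filter on dim probes, 350 with slide as a block, 1008 at an adjusted p below 0.10, 0, 8 and 0 within slides 1, 2 and 3 (1008, 963 and 2140 at an unadjusted p below 0.05 by limma), 377 without exercised s2m3 and sedentary s2m2, and 119 without slide 1. Leaving out each array in turn gave 418 to 571. Normexp background correction called 0 genes, with 106 at an unadjusted p below 0.05 by limma (on 4 arrays single spots have a local background of up to 599386 units, and with that background limited, 405 genes were called). The limited background, the fit without exercised s2m3 and sedentary s2m2 and the fit without slide 1 were chosen after seeing the data. The median marker difference within slide 1 was 1.39, and over single arrays left out it ran from 0.593 to 0.976. Scx changed sign most often, from -0.072 to 0.111 with each array left out (-0.072 without exercised s2m5 and -0.019 without sedentary s2m2), -0.0497 within slide 2, -0.0800 within slide 3, -0.0207 without exercised s2m3 and sedentary s2m2 and -0.115 without slide 1. Within slide 2, Mkx was -0.0014 and Col11a2 -0.0220. The labels do not say whether the 4 mouse numbers shared by the groups pair the arrays. Deviations of same-numbered arrays correlated at 0.15, -0.19, 0.12 and 0.28, and the first and last of these pairs each shared a slide. The replicate block gave 29 called genes against 130 for the same arrays without it. Such a block also leaves fewer values to estimate the spread, so these counts cannot decide whether the arrays are paired. The cause of these changes was not tested.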
